A study of Mus musculus with 6 samples.

Results

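The 10 genes of cytotoxic lymphocytes described here were chosen by symbol from the 22271 genes of the deposited read counts: Nkg7, Prf1, Gzma, Gzmb, Ccl5, Il2rb, Klrd1, Lck, Cd3e and Cd3g. All 10 members were found in the table, and 9 of 10 passed the filter on low counts, Prf1 being the exception. The libraries came from a pair of progenitor populations sorted from C57BL/6JRj mouse bone marrow, all called WT in the sample titles: 3 libraries of CD27-high MODP cells and 3 of CD27-low MOP cells. The series' title places the MOP, a bipotent progenitor of macrophages and osteoclasts, downstream of the MODP, which can also give dendritic cells. No treatment is named, and the sources used here do not give the age of the mice, their number or any pooling. Libraries are called replicates 1, 2 and 3 after the WT number in the column names of the count table, and values are listed in that order; the titles of both replicate 3 libraries say WT1 where the column names say WT3. Library totals ran from 10701425 to 15892640 counts, so that 1 count was worth 0.0640 to 0.0941 counts per 1000000 (CPM). Cd27, the gene of the sort marker, had 35.4, 38.9 and 38.7 CPM in the libraries labelled CD27-high and 4.57, 3.52 and 3.64 CPM in those labelled CD27-low.

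Cytotoxic lymphocytes, which are natural killer (NK) cells and CD8+ T cells, kill by releasing granules. Perforin, the product of Prf1, opens the membrane of the target, and the granzymes, serine proteases such as those of Gzma and Gzmb, pass in and start cell death. Nkg7 is a membrane protein of these granules. Il2rb encodes the receptor chain shared by IL-2 and IL-15, cytokines that keep NK and memory CD8+ T cells alive, and Ccl5 a chemokine that such cells secrete. Klrd1 encodes CD94, the partner of NKG2 receptors on NK cells. CD3 epsilon and gamma, from Cd3e and Cd3g, are the signalling chains of the T cell receptor, and the kinase Lck phosphorylates them.

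The bases upstream of a start site hold sites to which transcription factors bind. RefSeq's table (GRCm38.p6) held promoters for 7 of 10 members and 8 starts in all, since Lck has 2; Il2rb, Ccl5 and Klrd1 had no entry. Below are the 250 bases before the start of 4 members, chosen because Nkg7 is by far the most abundant, Gzma and Gzmb are the granzyme genes of the set, and Cd3g had the largest fitted fold change. Capitals mark matches, on either strand, to the letters GGAAG (an ETS core), TGTGGT (a RUNX core), TCACAC (a T-box core) and TTCNNNGAA (a STAT palindrome), whose matches can overlap.
Nkg7 promoter (chr7:43436888-43437137, plus strand): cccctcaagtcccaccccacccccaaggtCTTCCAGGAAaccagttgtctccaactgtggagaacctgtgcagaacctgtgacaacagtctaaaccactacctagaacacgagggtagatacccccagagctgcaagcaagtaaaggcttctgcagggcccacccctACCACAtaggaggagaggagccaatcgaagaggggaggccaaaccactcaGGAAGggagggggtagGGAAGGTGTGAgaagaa
Gzma promoter (chr13:113100982-113101231, minus strand): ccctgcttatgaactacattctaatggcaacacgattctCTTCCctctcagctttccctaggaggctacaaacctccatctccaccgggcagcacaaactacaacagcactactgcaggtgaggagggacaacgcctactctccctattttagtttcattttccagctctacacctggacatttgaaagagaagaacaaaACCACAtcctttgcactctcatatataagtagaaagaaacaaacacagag
Gzmb promoter (chr14:56262335-56262584, minus strand): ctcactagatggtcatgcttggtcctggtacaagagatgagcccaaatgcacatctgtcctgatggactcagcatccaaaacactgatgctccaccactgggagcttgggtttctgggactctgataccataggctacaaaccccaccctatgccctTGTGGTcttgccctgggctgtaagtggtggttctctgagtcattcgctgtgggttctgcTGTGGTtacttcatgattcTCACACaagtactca
Cd3g promoter (chr9:44980432-44980681, minus strand): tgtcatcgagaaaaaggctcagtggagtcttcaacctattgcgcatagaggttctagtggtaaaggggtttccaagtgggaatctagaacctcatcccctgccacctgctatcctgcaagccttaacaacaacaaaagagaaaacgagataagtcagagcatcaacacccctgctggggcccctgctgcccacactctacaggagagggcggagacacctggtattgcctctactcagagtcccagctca
GGAAG occurred in 6 of 8 member promoters, TGTGGT in 5, TCACAC in 4 and TTCNNNGAA in 1, the Nkg7 promoter. Over 32851 RefSeq promoters of the same length, 64.1%, 14.0%, 12.3% and 7.02% held these letters. The Cd3g window held none of the 4 motifs. A match is a description of the letters and not a bound site.

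In every pair of libraries with the same replicate number, 9 of 10 genes had lower values in MOP than in MODP; Gzmb was the exception. The MODP values of these 9 were 2.05 to 20.0 times as high as the MOP values. The values of the MODP and MOP libraries did not overlap for 8 of 10 (all but Gzma and Gzmb); among all 12850 genes tested, 23.8% were lower in MOP without overlap and 33.4% were lower in all 3 pairs. With edgeR (quasi-likelihood test, Benjamini-Hochberg adjusted p below 0.05 over all genes tested), 7 of 9 tested members were lower in MOP (Nkg7, Il2rb, Ccl5, Lck, Cd3e, Cd3g and Klrd1) and 0 were higher, against 14.9% of tested genes called lower and 16.3% called higher. Cd3e, Cd3g and Gzma entered the test through MODP alone, since only 1, 0 and 1 of their MOP libraries exceeded the filter's 0.736 CPM; the count of 7 is therefore a description and no support for a direction. The median log2 fold change of the 9 tested members was -2.70, against -0.0075 over all tested genes. It includes Cd3e, Cd3g and Gzma and is likewise a description. Blocked on the replicate number, edgeR called 8 of 9 lower, Gzma being the added gene, and 0 higher, where 19.8% and 21.2% of all tested genes were called. The same 8 were called with the number in the titles as the block (18.0% and 19.6% of tested genes) and with DESeq2 (13.2% and 16.2%). In bulk RNA, fewer cells of a type and less RNA per cell cannot be told apart.

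**Figure D1:**
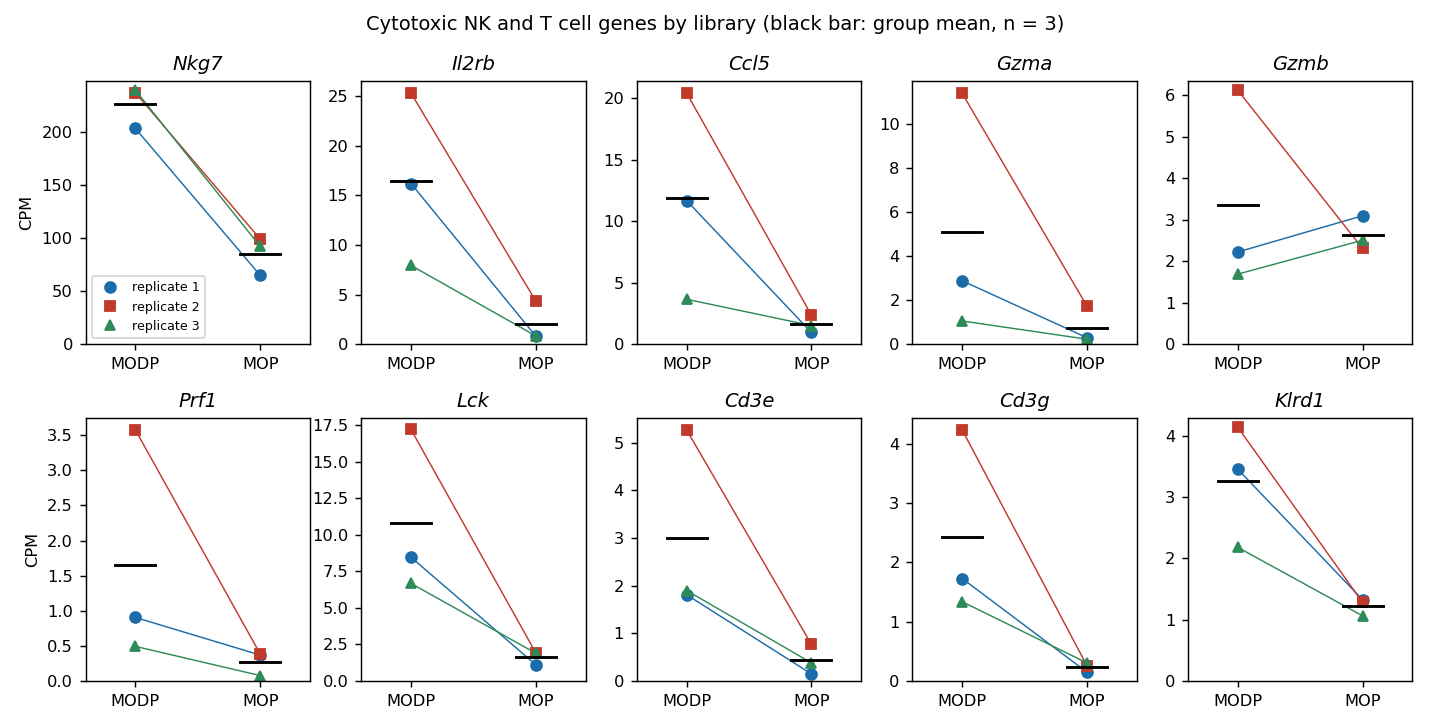
Level in CPM (y axis, from 0, one scale per gene) of the 10 genes in MODP and MOP; each symbol is a library, lines join libraries with the same replicate number and black bars are means (n = 3). Replicate 2 of MODP is the highest library for 9 of 10 genes, and Gzmb is the one gene whose lines run in both directions.

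Nkg7, the granule membrane protein gene, was the one abundant member. Its MODP libraries held 204, 237 and 240 CPM, its MOP libraries 65.0, 99.3 and 92.3 CPM. The MODP libraries lay close together, with a highest-to-lowest ratio of 1.18, and every MOP library was below 100 CPM. The log2 fold change was -1.41 ± 0.17 (SE), a 2.65-fold lower level in MOP with an edgeR adjusted p of 0.0024, and within pairs MODP was 3.13, 2.39 and 2.60 times as high. Per kilobase of exon (GENCODE M21), Nkg7 reached 248 CPM per kb in MODP and 93.6 in MOP, whereas the next member, Ccl5, reached 12.4 in MODP. Nkg7 alone made up 70.9% to 89.9% of the summed CPM of the 10 genes in MODP libraries and 86.6% to 91.3% in MOP libraries, so that a sum over them mainly reads this gene.

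Among genes with a mean of at least 10 CPM, the closest to the profile of Nkg7 over the 6 libraries were outside the lymphocyte lists. That cut left out the other members, so genes at their level could not be among the nearest. Among 9039 other tested genes with a mean of at least 10 CPM, ranked by Euclidean distance between centred log2 profiles, the 5 nearest were Prss57, Erg, Dpy19l3, Tie1 and Slc28a2, at distances of 0.096, 0.14, 0.19, 0.23 and 0.24 against a median of 1.84. Prss57 encodes a serine protease of neutrophil azurophil granules and averaged 138 ± 7.69 CPM in MODP against 53.4 ± 10.6 CPM in MOP (SD, n = 3). Erg, a transcription factor of blood stem cells and endothelium, stood at 65.2 ± 6.68 and 25.0 ± 5.17 CPM, and Tie1, a receptor gene of the same cell types, at 28.1 ± 1.76 and 9.85 ± 1.74 CPM. Dpy19l3, a mannosyltransferase gene, and Slc28a2, a nucleoside transporter gene, differed 2.58-fold and 2.46-fold between the group means. This likeness is a description over 6 libraries.

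Prf1, Gzma and Gzmb, the effector genes of the granule, had low counts, Prf1 the lowest. With all 6 libraries and no block, edgeR called none of them. Prf1 counts were 11, 38 and 7 in MODP against 5, 6 and 1 in MOP, or 0.904, 3.57 and 0.492 CPM against 0.368, 0.384 and 0.0758 CPM. The lowest MODP library was only just above the highest MOP library, and replicate 2 held most of the MODP reads. The filter removed Prf1 from the test; with every gene kept, its edgeR adjusted p was 0.091.

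Gzma, which encodes granzyme A, had 35, 121 and 15 counts in MODP and 4, 27 and 3 in MOP, or 2.88, 11.4 and 1.05 CPM against 0.295, 1.73 and 0.228 CPM. Replicate 2 was the highest library in each group and the groups overlapped, because MOP replicate 2 exceeded MODP replicate 3. Within pairs MODP was 9.77, 6.58 and 4.63 times as high. The edgeR log2 fold change was -2.67 ± 1.20 (SE) with an adjusted p of 0.16; with the replicate number as a block it was -2.76 ± 0.29 with an adjusted p of 0.00023, where 19.8% of tested genes were called lower. Without replicate 2 of both groups, the edgeR adjusted p of Gzma was 0.016.

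Gzmb, which encodes granzyme B, had 27, 65 and 24 counts in MODP and 42, 36 and 33 in MOP, or 2.22, 6.11 and 1.69 CPM against 3.09, 2.31 and 2.50 CPM. MODP was 2.65 times as high in the pair of replicate 2, and MOP was 1.39 and 1.48 times as high in those of replicates 1 and 3. The edgeR log2 fold change was -0.32 ± 0.47 (SE, adjusted p = 0.66), and -0.21 ± 0.43 with the block (adjusted p = 0.73). Without MODP replicate 2 its sign turned, to 0.43 (edgeR adjusted p = 0.28). In MOP, Gzmb was the second member by level per kilobase, at 1.83 CPM per kb, with library values that overlapped those of Ccl5.

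**Figure D2:**
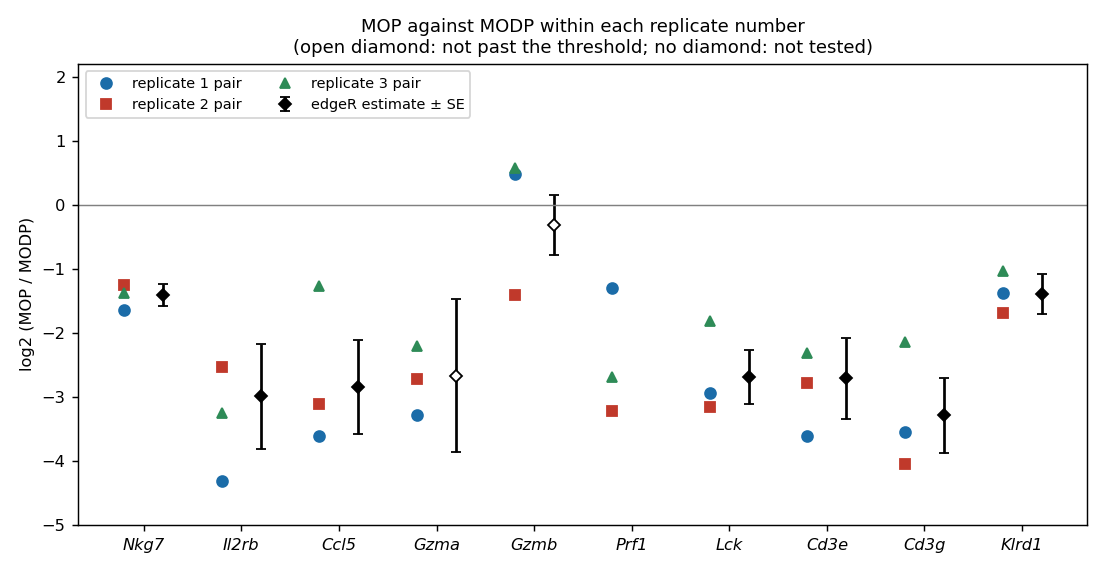
Log2 ratio of MOP to MODP (y axis) for each replicate number, with edgeR's estimate and its standard error beside it; filled diamonds passed the threshold. Nkg7 and Klrd1 have the narrowest spread over pairs, Gzmb lies on both sides of 0, and Prf1 was not tested.

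Ccl5 and Il2rb, the chemokine and the cytokine receptor chain, were lower in MOP by larger folds but varied more between libraries. Ccl5 levels were 11.7, 20.4 and 3.65 CPM in MODP against 0.957, 2.37 and 1.52 CPM in MOP. All MODP libraries lay above all MOP libraries, and replicate 2 was highest in both groups. The log2 fold change was -2.85 ± 0.73 (SE), or 7.21-fold, with an edgeR adjusted p of 0.035. Within pairs MODP was 12.2, 8.62 and 2.41 times as high, so the replicate 3 pair gave the smallest ratio. The call for Ccl5 was lost without MODP replicate 1 (edgeR adjusted p = 0.086) and without MOP replicate 1, 2 or 3 (0.12, 0.077 and 0.11), and also without replicate 2 of both groups (0.057).

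For Il2rb the MODP libraries held 16.2, 25.3 and 7.94 CPM, and the MOP libraries 0.810, 4.35 and 0.834 CPM. MODP replicate 3, the lowest of its group, was still above MOP replicate 2, the highest of the other. The log2 fold change was -2.99 ± 0.82 (SE), or 7.94-fold, with an edgeR adjusted p of 0.049, and it was -3.13 ± 0.31 with the replicate block (adjusted p = 0.00059). The pair ratios were 20.0, 5.81 and 9.52, the first being the widest ratio of any member. The call for Il2rb held in 1 of the 6 fits without a library, that without MOP replicate 2 (edgeR adjusted p = 0.013); it was lost without MODP replicate 1, 2 or 3 (0.12, 0.092 and 0.059) and without MOP replicate 1 or 3 (0.14 and 0.12).

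Klrd1, the CD94 gene, was 2.63-fold lower in MOP with little spread. It had 42, 44 and 31 counts in MODP and 18, 20 and 14 in MOP, or 3.45, 4.14 and 2.18 CPM against 1.33, 1.28 and 1.06 CPM. The groups did not overlap, and the MOP libraries were nearly level, with a highest-to-lowest ratio of 1.25. Its log2 fold change of -1.39 ± 0.31 (SE, edgeR adjusted p = 0.011) was close to that of Nkg7, and the pair ratios were 2.61, 3.23 and 2.05. The difference between the fold changes of these and the other members was not tested.

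The T cell receptor genes and their kinase were lower in MOP, from a low level. Lck levels were 8.47, 17.2 and 6.68 CPM in MODP against 1.10, 1.92 and 1.90 CPM in MOP. Each MODP library exceeded the highest MOP library at least 3-fold. The log2 fold change of Lck was -2.70 ± 0.42 (SE), or 6.49-fold, with an edgeR adjusted p of 0.0036.

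Cd3e had 22, 56 and 27 counts in MODP and 2, 12 and 5 in MOP, or 1.81, 5.27 and 1.90 CPM against 0.147, 0.768 and 0.379 CPM. Cd3g had 21, 45 and 19 counts against 2, 4 and 4, or 1.73, 4.23 and 1.34 CPM against 0.147, 0.256 and 0.303 CPM. MODP replicate 2 stood well above the other libraries for both genes, which encode chains of the same complex, and neither gene overlapped between the groups. Their log2 fold changes were -2.71 ± 0.64 and -3.29 ± 0.59 (SE; edgeR adjusted p = 0.015 and 0.0043). The call for Cd3e was lost without MOP replicate 1 or 3 (edgeR adjusted p = 0.050 and 0.063). In GENCODE M21 the Cd3e locus overlaps Gm48719 on the other strand and Gm48720 on its own, and the sources used here do not give the strand setting of the counting.

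Per kilobase of exon, the order in MODP after Nkg7 and Ccl5 was Gzma at 5.07 CPM per kb, Il2rb at 3.84, Lck at 3.68, Klrd1 at 2.54, Gzmb at 2.33, Cd3g at 0.744, Cd3e at 0.733 and Prf1 at 0.641. The library values of neighbours in this order overlapped, except that every Nkg7 library stood above every Ccl5 library. In MOP the order was Nkg7, Gzmb at 1.83, Ccl5 at 1.68, Klrd1 at 0.954, Gzma at 0.746, Lck at 0.560, Il2rb at 0.466, Prf1 at 0.107, Cd3e at 0.106 and Cd3g at 0.0721. Neighbours overlapped there too, save Nkg7 with Gzmb and Il2rb with Prf1.

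Replicate 2 was the high library for most members. It was the highest MODP library for 9 of 10 members and the highest MOP library for 7 of 10, against 39.0% and 34.2% of all tested genes. In MODP its ratio to the mean of replicates 1 and 3 was 5.79 for Gzma, 5.12 for Prf1, 3.13 for Gzmb, 2.84 for Cd3e, 2.76 for Cd3g, 2.66 for Ccl5, 2.27 for Lck and 2.10 for Il2rb. It was 1.47 for Klrd1 and 1.07 for Nkg7, which was highest in replicate 3. In MOP the ratio was 6.62 for Gzma, 5.30 for Il2rb and 2.92 for Cd3e but 0.824 for Gzmb. Summed over the 9 members other than Nkg7, the MODP libraries held 49.3, 97.6 and 26.9 CPM and the MOP libraries 8.25, 15.4 and 8.80 CPM.

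NK and T cell markers had reads in both groups and mostly lower values in MOP, whereas markers of other cells differed in direction between lists. Of 8 NK cell markers 5 were called lower, 0 were called higher, 1 (Klrk1) did not pass the test and 2 were not tested. All 5 had at most 1 MOP library over the filter's level and so entered the test through MODP, and this count is a description. The count of lower markers was 3 without MOP replicate 1 or 3, and also 3 when at least 1 CPM was required in 3 libraries. Ncr1, the NK receptor NKp46, had 2.88, 3.95 and 1.41 CPM in MODP against 0.147, 0.512 and 0.228 CPM in MOP, where no library reached the filter's level. Without Klrk1, an activating receptor at 12.8 to 18.3 CPM in every library, the 7 other NK markers summed to 14.7, 23.8 and 7.66 CPM in MODP against 1.10, 4.03 and 2.35 CPM in MOP. Of 10 T cell markers all 10 were lower in MOP within every pair. Of these 4 passed the test (Trac, Trbc2, Cd5 and Cd6), 4 did not and 2 were not tested. With the replicate block 8 were lower. For Trbc2, 48.5% of the 31-base words occur in other genes, Trbc1 among them. Here too 6 of the 8 tested markers, Trac, Trbc2 and Cd5 among them, entered the test through MODP. Their sum was 15.9, 48.0 and 15.2 CPM in MODP against 3.39, 8.20 and 6.37 CPM in MOP. Cd8b1, the CD8 beta chain of cytotoxic T cells, had 0 counts in MOP replicates 1 and 3. Of the 8 NK and 10 T cell markers, 0 were at 0 counts throughout a group. Outside these lists, Zfp683, the gene of the transcription factor Hobit, and Gzmk, that of granzyme K, had 0 counts in all 3 MOP libraries. The other way round, 1 gene of the granule and death ligand list had 0 counts in all 3 MODP libraries.

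Neutrophil markers were also highest in replicate 2, 7 of 7 in each group, as were B lineage markers, 9 of 9 in each group. Basophil and mast cell markers were highest there for 8 of 8 in MODP but 0 of 8 in MOP. The sum over the 7 neutrophil genes, such as S100a8 and Ltf, was 3525, 16508 and 2135 CPM in MODP against 2689, 11384 and 4825 CPM in MOP. Of these, 0 of 7 passed the test. Markers of the B lineage summed to 380, 488 and 383 CPM in MODP against 647, 1251 and 571 CPM in MOP, and 0 of 9 passed, though 3 were lower with the replicate block. The higher MOP sum came from Ighm, the immunoglobulin heavy chain gene, at 313, 358 and 338 CPM against 607, 1170 and 522 CPM; without it the sums were 66.2, 130 and 45.0 CPM in MODP against 39.7, 80.9 and 48.8 CPM in MOP. Monocyte and macrophage markers summed to 2075 to 3345 CPM in MODP against 5324 to 5769 CPM in MOP, with 5 of 6 higher. Replicate 2 was the highest library for 1 of 6 in each group. Without Lyz2, their most abundant gene, the sums were 1810, 1685 and 1702 CPM in MODP against 3361, 3099 and 3244 CPM in MOP. Basophil and mast cell markers were higher too, with sums of 378 to 978 CPM in MODP against 3248 to 5187 CPM in MOP and 8 of 8 higher (3 with the replicate block by column number, 8 with that by title number; 5 without MODP replicate 1 or 3 or MOP replicate 1 or 3). Early progenitor markers, which include Flt3 and Kit, summed to 1092 to 1216 CPM in MODP against 442 to 489 CPM in MOP, 7 of 7 being lower, with replicate 2 at 0.941 and 0.961 times the mean of the others. Of 6 tested plasmacytoid dendritic cell markers 3 were lower and 0 higher, and 1 of these 3 entered the test through MODP. The 7 genes of that list summed to 70.6 to 111 CPM in MODP against 58.3 to 73.4 CPM in MOP. Replicate 2 was the highest library for 6 of 7 in each group. Of 8 early lymphoid progenitor markers 2 were lower and 1 higher, as were 2 and 1 of 5 tested innate lymphoid cell markers. With either replicate block, or without replicate 2 of both groups, 4 of the early lymphoid progenitor markers were lower. Only 1 of the innate lymphoid cell markers was lower with DESeq2 and in each fit without a library. The part of these cell types in the members' differences was not tested. Without replicate 2 of both groups, 7 of 9 tested members were lower, among them Gzma but not Ccl5, and 0 were higher, against 15.6% and 18.4% of tested genes.

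**Figure D3:**
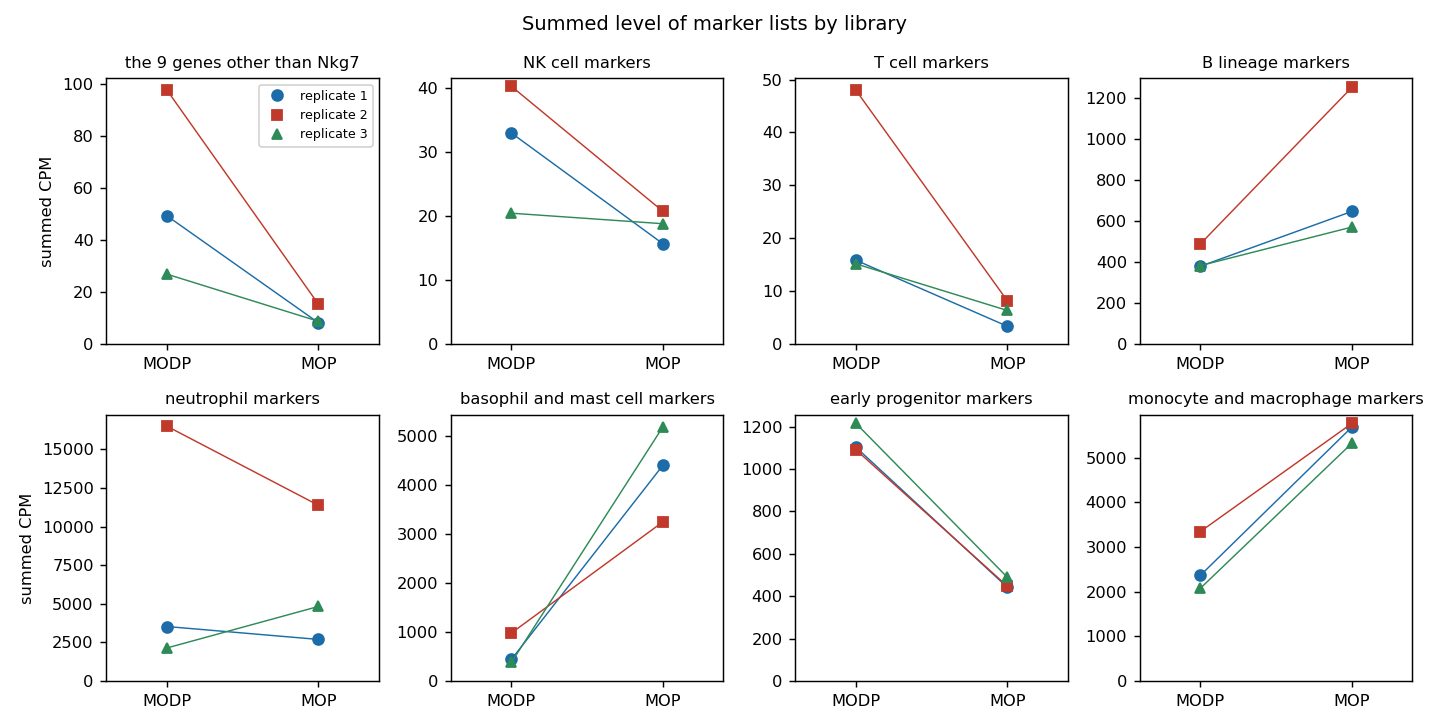
Summed CPM (y axis, from 0) of the 9 genes other than Nkg7 and of 7 marker lists in each library; lines join libraries of the same replicate number. Within MODP every sum but that of early progenitor markers is highest in replicate 2. For monocyte and macrophage markers this comes from Lyz2, without which replicate 2 is the lowest. The early progenitor sum is level within each group.

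Beyond the members, most granule genes past the test were lower in MOP, and those for its release were higher. Of the 9 tested granule and death ligand genes that are no members, 5 were lower and 1 was higher, with a median log2 fold change of -0.67 (all tested genes: -0.0075). Srgn, the proteoglycan that packs granule proteins, fell from 1030 ± 76.1 to 664 ± 65.7 CPM (SD, n = 3), and Cst7, the cathepsin inhibitor cystatin F, from 203 ± 12.8 to 112 ± 9.52 CPM. Ctsw, a cathepsin of cytotoxic lymphocytes, fell from 4.80 ± 1.95 to 1.19 ± 0.410 CPM, and Tnfsf10, the death ligand TRAIL, from 14.1 ± 0.902 to 7.38 ± 1.17 CPM. Ctsc, the protease that activates progranzymes, rose from 117 ± 3.69 to 295 ± 18.5 CPM. Serpinb9, the granzyme B inhibitor, was the fifth lower gene, at log2 -0.67 ± 0.22 (SE, edgeR adjusted p = 0.047), and kept its call in 1 of the 6 fits without a library.

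Among 14 tested genes for granule release, 7 were higher and 0 lower, and 7 did not pass, with a median log2 fold change of 0.27. Lamp1, the lysosomal membrane protein exposed when granules are released, rose from 475 ± 38.3 to 835 ± 65.1 CPM. Lyst, whose loss gives giant granules, rose by log2 0.74 ± 0.09 (SE), the actin regulator Coro1a by 0.63 ± 0.09 and the fusion protein gene Stx11 by 1.11 ± 0.21. Sytl3, a synaptotagmin-like gene, had a log2 fold change of 3.42 ± 0.44 (SE), but 47.6% of its 31-base words occur in other genes. Lamp1 and Lyst also serve lysosomes of other cells.

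Other genes of the T cell receptor and its signalling had calls in both directions. Of the 25 tested that are no members, 8 passed as lower and 2 as higher, and 15 did not pass, with a median log2 fold change of -0.73. Among the 25, 8 genes entered the test through MODP. They gave 4 of the 8 lower calls, those of Trac and Cd5 among them. The counts and the median are therefore a description. The receptor chain gene Trac had 1.15, 2.63 and 1.19 CPM in MODP against 0.0736, 0.512 and 0.0758 CPM in MOP. Cd6, a T cell surface receptor, fell from 5.00 ± 1.63 to 1.24 ± 0.505 CPM. Plcg1, the phospholipase downstream of Lck, fell by 0.73 ± 0.07 (SE) on the log2 scale, and Ubash3a, a negative regulator of T cell receptor signals, fell from 54.8 ± 3.94 to 33.4 ± 3.11 CPM. Ptprcap, the CD45-associated protein gene, had a log2 fold change of -1.37 ± 0.11 (SE), though 97.6% of its 31-base words occur in other genes. The adaptor gene Lcp2 rose from 102 ± 13.4 to 150 ± 0.348 CPM. Vav1, the most abundant of the list at 312 and 329 CPM on average, did not pass. With the block 14 of the list were lower. The higher genes numbered 6 without MODP replicate 2, 5 without replicate 2 of both groups, 4 with DESeq2, and 1 with every gene kept or without MODP replicate 1 or 3 or MOP replicate 1 or 3.

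NK receptor genes were found on both sides. Of 16 tested genes beside Klrd1, 6 passed as lower and 6 as higher, with a median of -0.06, and 14 more were too low to test. All 6 lower genes, Cd96 and Ncr1 among them, entered the test through MODP, with at most 1 MOP library over the filter's level. Cd96, an immunoglobulin-like receptor of NK and T cells, fell from 3.69 ± 0.178 to 0.596 ± 0.297 CPM, and Ncr1 by 3.12 ± 0.55 (SE) on the log2 scale. The higher genes included the adaptor genes Tyrobp, from 209 ± 34.9 to 408 ± 24.0 CPM, and Fcer1g, from 142 ± 28.4 to 287 ± 16.6 CPM, which myeloid cells also use, and the lectin receptor gene Klrb1f, from 21.1 ± 2.99 to 54.9 ± 11.3 CPM. Klrc1 and Klrc2, the NKG2 partners of CD94, were not tested; Klrc1 had 1.73, 3.67 and 0.633 CPM in MODP against 0.147, 0.256 and 0.0758 CPM in MOP, and 54.5% of its 31-base words occur in other genes. The number of lower genes in the list was 10 without MODP replicate 3 and with every gene kept, 3 without MOP replicate 1, and 4 without MOP replicate 3 or when 1 CPM was required in 3 libraries.

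Among the partners of Il2rb, the shares called were near those of all genes. Of 12 tested genes of the IL-2 and IL-15 receptor pathway, 2 were lower (Il21r and Jak3), 2 were higher (Jak1 and Stat5b) and 8 did not pass, with a median of -0.05; among all genes tested 14.9% were lower and 16.3% higher. Il2rg, the common gamma chain, averaged 19.2 ± 3.76 CPM in MODP against 17.6 ± 1.04 CPM in MOP (edgeR adjusted p = 0.55), and 42.7% of its 31-base words occur in other genes. Jak3, the kinase bound to that chain, fell from 74.9 ± 5.62 to 50.1 ± 0.458 CPM, and Il21r, the IL-21 receptor, from 20.7 ± 1.46 to 9.24 ± 1.37 CPM. Stat5b, the factor these receptors activate, had a log2 fold change of 0.32 ± 0.07 (SE, edgeR adjusted p = 0.011). Jak1, at 0.28 ± 0.09 (edgeR adjusted p = 0.042), kept its call in 1 of the 6 fits without a library, that without MODP replicate 2. The list held 3 higher genes without MODP replicate 2 or replicate 2 of both groups, and 1 under upper-quartile scaling, without robust estimation and without any other single library.

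The list around Ccl5 held other chemokine genes, receptors and the transcription factor gene Klf13. Of its 9 tested genes 6 passed as higher in MOP and 0 as lower, with a median of 1.67; the 6 were the chemokine genes Ccl3, Ccl4, Ccl6 and Ccl9, the receptor gene Ccr3, and Klf13. Ccl4 kept its call in 0 of the 6 fits without a library. The list held 1 lower gene with DESeq2, with either replicate block, without MOP replicate 2 and without replicate 2 of both groups. Its higher genes ran from 4, without MODP replicate 1 or MOP replicate 1, to 7 without robust estimation. Ccl3, a ligand that shares receptors with CCL5, rose from 89.9 ± 23.9 to 417 ± 107 CPM, and Ccr3, a receptor of CCL5, from 2.13 ± 1.07 to 7.10 ± 0.679 CPM. Klf13, which binds the Ccl5 promoter in T cells, rose from 128 ± 12.6 to 207 ± 13.2 CPM, and Ccl9 from 179 ± 15.4 to 255 ± 36.4 CPM. Ccl6 had a log2 fold change of 2.46 ± 0.43 (SE, edgeR adjusted p = 0.015), which was not called with the replicate block by column number (adjusted p = 0.064) but was with that by title number (adjusted p = 0.027).

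Among 15 tested transcription factor genes of NK and T cells, 6 passed as lower and 0 as higher, with a median of -0.49. Of the 6, Eomes and Tox entered the test through MODP. Eomes, a T-box factor of NK and memory T cells, fell from 2.63 ± 0.743 to 0.606 ± 0.211 CPM, Tcf7 from 7.84 ± 1.77 to 1.72 ± 0.929 CPM and Tox from 1.85 ± 0.926 to 0.232 ± 0.0865 CPM. Runx3, which cytotoxic T cells and myeloid cells both use, fell from 120 ± 8.97 to 85.2 ± 5.79 CPM. Stat4 had a log2 fold change of -0.63 ± 0.13 (SE), with about 31% of its 31-base words in other genes. Tbx21, the T-box factor T-bet, was not tested, with 1.89, 2.73 and 0.562 CPM in MODP against 0.147, 0.448 and 0.455 CPM in MOP. Zeb2, the most abundant, did not pass (edgeR adjusted p = 0.17); with the replicate block by column number it was called higher (edgeR adjusted p = 0.015), and 3 genes of the list were higher in all. With the block by title number, Zeb2 was not called (edgeR adjusted p = 0.22) and 0 genes of the list were higher. The list held 2 higher genes with DESeq2, without robust estimation, and when replicate 2 of MODP or of both groups was left out.

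**Figure D4:**
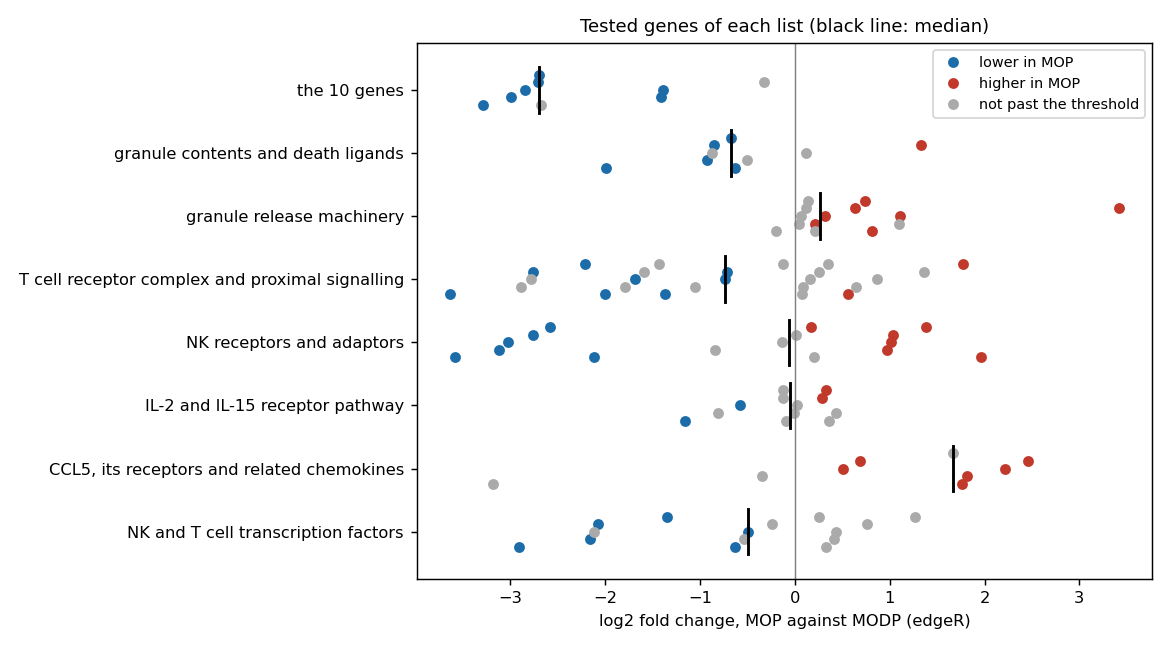
Log2 fold change of MOP against MODP (x axis) for each tested gene of the 10 genes and of 7 pathway lists without them; colours give the call and black lines the median. The tested members have a median of -2.70, which includes Cd3e, Cd3g and Gzma, genes that entered the test through MODP. The receptor and signalling lists spread over both sides of 0, and the list around Ccl5 lies mostly above it.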

How the data were processed

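Raw read counts per Ensembl gene, deposited by the authors with no normalization, were used for all 6 libraries. TopHat 1.4 and HTSeq are named in the submitters' processing notes; the sources used here do not give the build, annotation or strand setting. Symbols and exon lengths came from GENCODE M21 (20840 of 22271 identifiers matched). The genes, lists and tests were chosen with earlier results of these data known. Genes were kept by filterByExpr (12850 tested) and fitted with edgeR 4.0.16 (TMM, robust quasi-likelihood, Benjamini-Hochberg adjustment, threshold 0.05); CPM values use the same TMM-scaled totals of tested genes. No source says that the libraries come from different animals, so p-values measure only the spread between libraries, which may be technical. Deviations from group means correlated at 0.59, 0.61 and 0.51 between libraries of the same column number and at -0.45 to 0.05 otherwise, so these numbers were taken as pairs; a fit with the number as a block is given where it changed the call of a named gene or moved a count of calls by over 1.5 times. Pairs of libraries within a group differed with a chi-square per degree of freedom of 7.35 to 34.7, more than sampling noise gives; this does not tell whether libraries share an animal or RNA. Shared sequence was the share of 31-base words of a gene's longest transcript found in other genes, at most 1.35% for the members. Named genes were the members, up to 5 others of each pathway list past the threshold by adjusted p with its most abundant gene, genes of the marker lists, and the 5 profiles nearest to that of the most abundant member; Serpinb9, Klrc1, Klrc2, Il2rg, Gzmk, Ccl4, Zfp683 and Tbx21 were added after their values were seen. Some genes of the lists are not reported here by name. Alternatives were DESeq2 1.42.0, upper-quartile scaling, 2 other filters, 2 blocks, fits without a library or without replicate 2 of both groups, and no robust estimation. The test was checked on simulated counts of independent libraries, with changes set only in more abundant genes. That check did not cover changes at the level of Gzma, Gzmb, Cd3e, Cd3g or Klrd1, nor paired libraries.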

Additional observations from a re-analysis of the deposited data

How the results depend on the processing

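Over 14 alternatives, Nkg7, Lck, Cd3g and Klrd1 kept direction and call in all of them; Cd3e lost its call in 2, and Ccl5 and Il2rb in 6 each, without a change of direction. Gzma was called in 4 (both blocks, DESeq2 and the fit without replicate 2 of both groups). Gzmb was called in none, and its log2 fold change ran from -0.65 without MODP replicate 3 to 0.43 without MODP replicate 2, and was 0.53 without replicate 2 of both groups. The number of members lower in MOP was 4 to 7 over the 6 fits without a library (4 without MOP replicate 1 or 3), 5 with every gene kept and 8 with DESeq2 or the replicate block; 0 members were higher in any fit. Over all genes, 1281 to 2524 were higher and 1036 to 2275 lower without a library, against 2095 and 1913. Upper-quartile scaling gave 1692 higher and 2452 lower, and the replicate block gave 2724 and 2544. With the number in the titles as a block, the calls of the members were the same as with the column number. In MOP the members other than Nkg7 rest on 1 to 68 counts a library, which limits their precision.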
